A study of Arabidopsis thaliana with 9 samples.

Results

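The UMAMIT genes of Arabidopsis thaliana encode membrane proteins that let amino acids pass in or out of cells. The family counted here comprises the 42 protein-coding genes on chromosomes 1 to 5 whose annotated symbol is UMAMIT followed by digits, among 27444 coding genes. They were chosen by name alone, but the family was put forward because NAC103 peaks beside it were known to be rare in chromatin immunoprecipitation (ChIP). The counts below are therefore a description of the peak lists, and no test was made on them. UMAMIT5 and UMAMIT18 are listed under their other symbols, WAT1 and SIAR1, and are described apart.

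ChIP used whole seedlings aged 5 days that carried NAC103-GFP under the 35S promoter, a strong promoter active in most tissues. Before fixation with 1% formaldehyde they had received MG132, which blocks the proteasome, at 20 µM over 24 h. According to the series design, NAC103 protein is low without it because of degradation. In DNA affinity purification (DAP), a fusion of NAC103 with the Halo tag was offered bare genomic DNA from untreated Col seedlings of the same age. ChIP had 3 replicates with an input each and DAP had 2 replicates with 1 shared input, 9 samples in all, of which the 5 enriched ones have a peak list. NAC103 was expressed from a transgene, and no ChIP without the tag was analysed here. Nothing in the labels says that replicates were separate cultures. The lists hold 4208, 14320 and 17095 peaks for ChIP replicates 1, 2 and 3, and 20792 and 21011 for DAP, so ChIP replicate 1 stands apart as the shortest. The depth of the libraries is unknown, and binding in different cell types of the whole seedling cannot be told apart.

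UMAMIT proteins belong to a large family of plant transporters with many membrane-spanning helices, and several act as facilitators that release amino acids down their gradient. Plants use such exporters where cells pass amino acids on without a direct cell connection, above all from maternal tissue to the embryo in the seed. UMAMIT11, UMAMIT14, UMAMIT28 and UMAMIT29 are known for amino acid export in the developing fruit and seed, and UMAMIT24 and UMAMIT25 for transfer within the seed. NAC103 is a transcription factor of the NAC family that acts in stress responses of the endoplasmic reticulum and in DNA damage responses.

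In seedling chromatin NAC103 peaks were found beside few UMAMIT genes. A gene was counted in a list if a peak overlapped its span or the 1000 bp on either side by at least 1 bp. ChIP replicate 1 had a peak at 2 of the 42 genes (4.76%, against 17.0% of all coding genes), replicate 2 at 8 (19.0% against 50.8%) and replicate 3 at 13 (31% against 59.7%). DAP replicate 1 had a peak at 23 of the 42 (54.8% against 64.4% of all coding genes), and so did DAP replicate 2 (54.8% against 64.7%). The UMAMIT share was below that of all coding genes in each of the 5 lists. In percentage points, the gap between the shares was wider in each ChIP list than in either DAP list. That contrast between the assays was lost when every list was limited to its 4187 peaks of highest fold, the length of the shortest list. Reproducible regions then touched 4.76% of UMAMIT genes in ChIP, against 14.7% of all coding genes, and 4.76% in DAP, against 17.1%. With −log10 q-values of at least 10 the shares were 2.38% against 5.44% in ChIP and 35.7% against 52.1% in DAP. This setting cannot decide on the contrast in percentage points, since the ChIP gap cannot exceed 5.44. In percentage points the ChIP gap was not wider than that of DAP (50% against 59.9%) when all 3 ChIP lists were required (4.76% against 13.6%). The same held without ChIP replicate 3 (4.76% against 13.8%), while without replicate 2 the ChIP gap stayed wider (4.76% against 15.9%). These settings lower the ChIP share of all coding genes, which limits the gap. As a fraction of the share of all coding genes, the UMAMIT share stayed lower in ChIP than in DAP in these settings. With lists of equal length it did not.

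Peaks of an assay that overlapped were joined into regions, and a region was called reproducible if at least 2 of the 3 ChIP lists, or both DAP lists, contributed to it. A reproducible ChIP region touched the window of 4 UMAMIT genes (9.52%, exact 95% interval 2.66% to 22.6%), against 39.6% of all coding genes. These were UMAMIT28, UMAMIT24, UMAMIT45 and UMAMIT1. A reproducible DAP region touched the window of 21 (50%, 34.2% to 65.8%), against 59.9% of all coding genes. The intervals cover counting error over genes only, and genes that lie side by side can share a peak. Only UMAMIT28 and UMAMIT24 had a region in both assays (4.76%, 0.582% to 16.2%), against 25.2% of all coding genes. DAP alone marked 19 (45.2% against 34.7%), ChIP alone 2 (4.76% against 14.4%) and neither assay 19 (45.2% against 25.7%).

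The ChIP count rests on replicates 2 and 3. When either was left out, UMAMIT28 and UMAMIT24 were left, 4.76% of the family, against 15.9% of all coding genes without replicate 2 and 13.8% without replicate 3. DAP alone still marked 45.2% of the family, but this was then below the share of all coding genes (49.7% without replicate 2 and 50.9% without replicate 3). Without replicate 1 the same 4 genes were counted, against 37.2%.

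**Figure D1:**
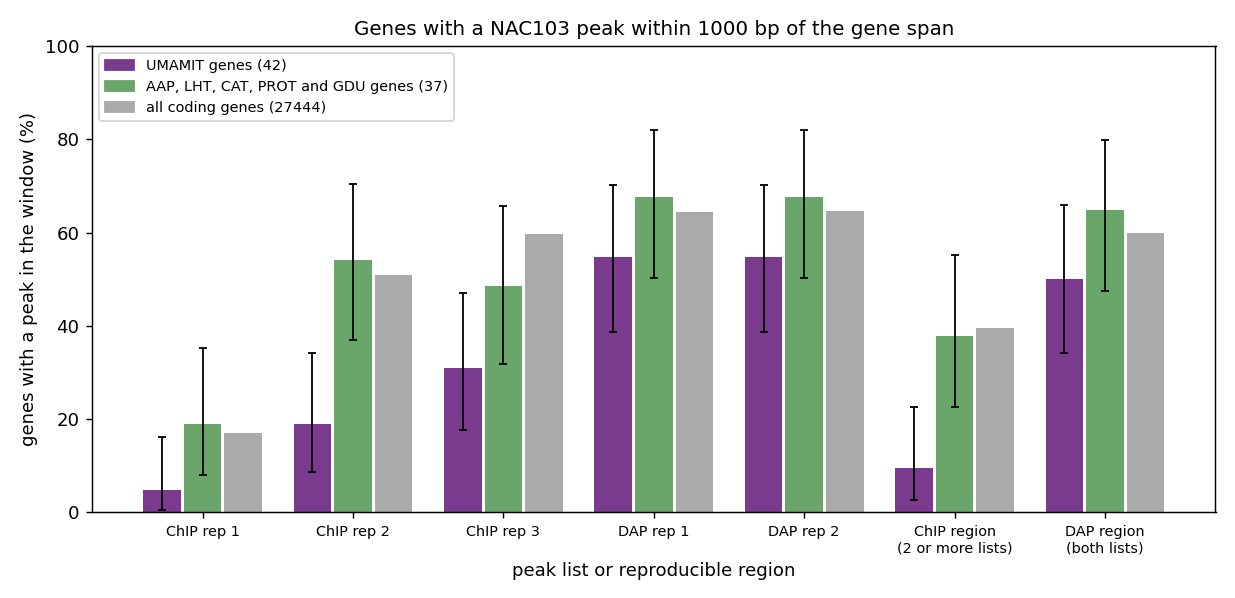
Bars give the percentage of genes with a NAC103 peak within 1000 bp of the gene span, for each of the 5 peak lists and for reproducible regions of each assay. Purple bars are the 42 UMAMIT genes, green bars the 37 genes of 5 other amino acid transporter families and grey bars all 27444 coding genes, and lines are exact 95% binomial intervals. In ChIP the purple bars stand at 4.76%, 19.0% and 31% and in DAP at 54.8% in both lists.

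UMAMIT28, an exporter of the seed endosperm, had a peak in all 5 lists. Its ChIP region lies on chromosome 1, 37779 to 38315 (TAIR10), with folds over background of 1.91, 2.27 and 4.18 in replicates 1, 2 and 3. The fold is the authors' value, given by their peak caller for each peak, and was used only within a list. Among its own list the replicate 3 peak stood at the 95.7th percentile of fold and the replicate 1 peak at the 44.7th. The DAP region, 37658 to 38208, had folds of 2.03 and 2.21, at the 20.3rd percentile on average. The regions shared 430 bp, and the ChIP summits at 38016, 37986 and 38103 lay 5 to 112 bp from the DAP summits at 37991 and 38034. This stretch lies between 2 genes: the ChIP summits were 341 to 458 bp from the end of UMAMIT28 and 115 to 232 bp from the end of LHY, which encodes a MYB transcription factor of the circadian clock. Each of the 5 summits, in ChIP and in DAP, was nearer to LHY than to UMAMIT28.

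UMAMIT24 had ChIP peaks on both sides of the gene and a DAP peak inside it. On the low-coordinate side, the region at chromosome 1, 8856774 to 8857157, gave 2.06, 2.18 and 2.94 as the folds of ChIP replicates 1, 2 and 3, with summits 719 to 820 bp from the gene. Beyond the other end, the region at 8860452 to 8862024 had folds of 1.82, 3.03 and 3.61, and its summits lay inside the neighbouring gene AT1G25275. The DAP region, 8857806 to 8858136, had folds of 3.30 and 3.18, with summits 263 and 269 bp inside UMAMIT24. A ChIP peak of replicate 2 alone lay inside the gene as well, with a fold of 1.91. None of the reproducible regions overlapped between the assays: the gaps between the ChIP regions and the DAP region were 649 and 2316 bp. Presence in both assays is thus a statement about the gene's window and not about 1 site.

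The remaining ChIP regions, at UMAMIT45 and UMAMIT1, lay inside the genes and had no DAP peak. UMAMIT45 had folds of 2.01 in replicate 2 and 2.99 in replicate 3 and no peak in replicate 1. Its region, chromosome 3, 10458746 to 10460028, joins peaks whose summits are 892 bp apart. UMAMIT1 had folds of 2.02 in replicate 2 and 1.88 in replicate 3, at 18387187 to 18387653 on chromosome 5, with summits 303 bp apart. In both genes the replicates therefore overlapped without placing their summit at the same point, whereas the summits at UMAMIT28 spread over 117 bp.

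**Figure D2:**
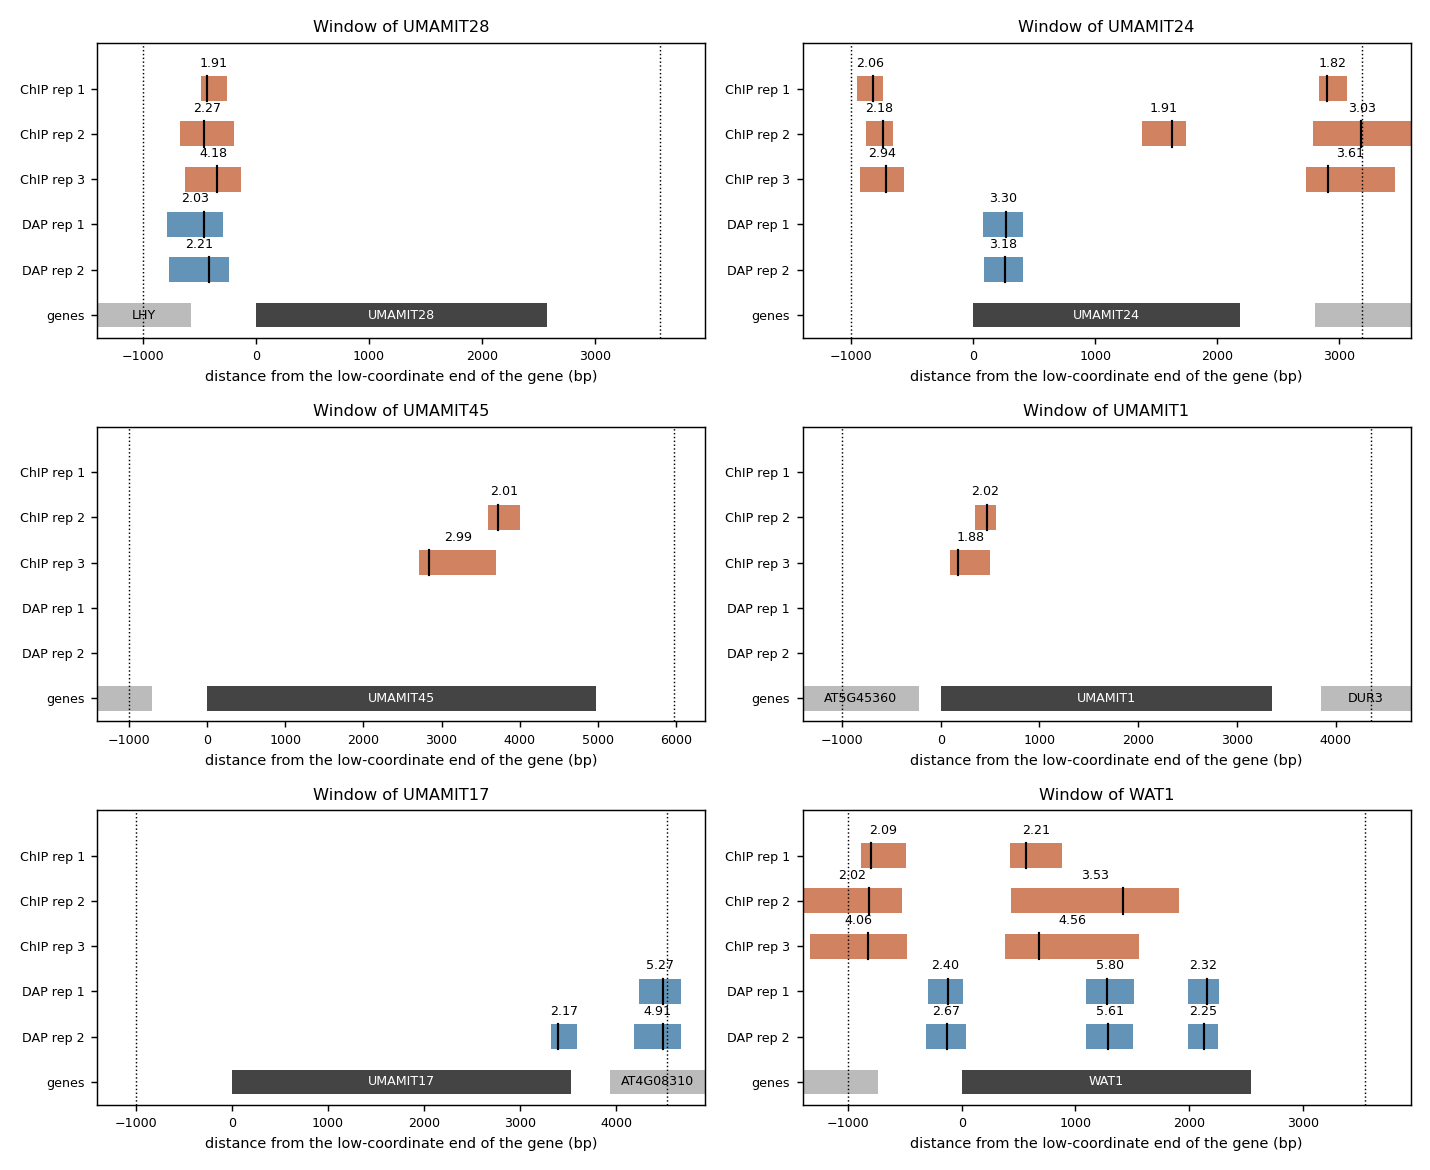
Each panel shows 1 gene (dark bar) with neighbouring coding genes (light bars), and above it the peaks of the 3 ChIP lists (orange) and 2 DAP lists (blue), with the summit as a black line and the authors' fold as a number. The x axis is the distance in bp from the low-coordinate end of the gene, since the gene table gives no strand, and dotted lines mark the 1000 bp flanks. ChIP and DAP peaks lie over each other beside UMAMIT28. Inside WAT1 this holds for ChIP replicates 2 and 3 but not for replicate 1, and at UMAMIT24 the peaks of the assays lie apart.

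Another 12 UMAMIT genes had a ChIP peak but no reproducible ChIP region, so that 16 of the 42 (38.1%) had a peak in any ChIP list, against 68.7% of all coding genes. No ChIP list had a peak at 26 genes (61.9% against 31.3%), exactly 1 list at 11 (26.2% against 24.4%), exactly 2 at 3 (7.14% against 29.7%) and all 3 at 2 (4.76% against 14.6%). In DAP, 24 genes had a peak in any list (57.1% against 69.2%), of which 2 had it in exactly 1 list (4.76% against 9.30%) and 22 in both (52.4% against 59.9%). UMAMIT33 had peaks in replicates 2 and 3 with folds of 1.63 and 2.32, but these did not overlap. In 8 genes the peak was in replicate 3 alone: UMAMIT2, UMAMIT6, UMAMIT10, UMAMIT11, UMAMIT13, UMAMIT38, UMAMIT40 and UMAMIT41. In 3 it was in replicate 2 alone: UMAMIT25, UMAMIT36 and UMAMIT44. The share of all coding genes with a peak in 1 given replicate alone is not given here, so these 2 counts only name the genes. Of the single-list peaks in replicate 3 the highest fold was 4.02, at UMAMIT40. Its summit lay outside that gene, 109 bp from AT5G40250, and the peak overlapped a reproducible DAP region by 418 bp. The peak of UMAMIT11 in replicate 3, with a fold of 2.25, overlapped its DAP region at chromosome 2, 17061551 to 17062323, by 201 bp. On its far side this DAP region also overlapped a reproducible ChIP region by 195 bp, but that ChIP region lay 1353 bp from UMAMIT11, outside the window.

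UMAMIT41 and UMAMIT38 had replicate 3 folds of 3.02 and 3.04, UMAMIT10 had 2.79, UMAMIT13 had 2.35, and UMAMIT2 and UMAMIT6 had 1.96. In replicate 2 UMAMIT44 had a fold of 2.01, UMAMIT25 of 1.98 and UMAMIT36 of 1.97. At UMAMIT44 the summit lay 721 bp outside the gene, within an annotated noncoding RNA gene, AT3G00460. Of the 23 ChIP regions in UMAMIT windows, 5 were reproducible (21.7%), against 42.3% of the 22435 ChIP regions of the nuclear genome. The same share in DAP was 29 of 38 (76.3%), against 77.3% of 23389. The ChIP regions beside UMAMIT genes thus held a smaller share of reproducible ones, and the DAP regions a share near that of the genome. The genome's regions include those outside the windows of coding genes, and the ChIP share rests on 5 regions. Genes with a peak in exactly 1 ChIP list were about as frequent in the family as among all coding genes, as given above.

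Summits lay both inside and outside the genes in either assay. Of 31 ChIP peaks paired with a UMAMIT window, 11 had the summit inside the gene, and 14 had the summit nearer to another coding gene than to the UMAMIT gene. Of 66 DAP peaks, 35 had the summit inside the gene and 16 were nearer to another gene. Of the summits in UMAMIT windows, 0%, 60% and 29.4% lay inside the gene in ChIP replicates 1, 2 and 3, against 37.6%, 53.3% and 40.9% for all coding genes. In DAP replicates 1 and 2 the shares were 53.1% and 56.2%, against 56.9% for all coding genes in both. Over all coding genes ChIP thus also had a lower share inside than DAP, and for UMAMIT genes ChIP replicate 2 stood above both DAP lists. Inside the 42 genes, ChIP replicates 1, 2 and 3 had 0, 5.35 and 4.46 summits per 100 kb, against 2.89, 15.7 and 14.1 inside all coding genes. In the flanks these values were 3.57, 4.76 and 14.3 for UMAMIT genes, against 5.72, 16.4 and 24.4 for all coding genes. DAP replicates 1 and 2 had 15.2 and 16.1 summits per 100 kb inside UMAMIT genes, against 20.7 and 20.9 inside all coding genes. In the flanks they had 17.9 and 16.7 for UMAMIT genes, against 18.6 and 18.8. Counted per length of sequence, ChIP summits were thus sparser both inside and around UMAMIT genes. DAP summits were also sparser inside UMAMIT genes, while in the flanks they were close in density to those of all coding genes.

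Length and spacing of the genes differ from the rest of the genome in ways that touch these counts. UMAMIT genes have a median length of 2552 bp, against 2078 bp for all coding genes, which widens the window in which a peak can fall. A coding neighbour within the window is less frequent: 13 of the 42 (31%) have none, against 19.5% of all coding genes. None of those 13 had a reproducible ChIP region, against 31.3% of all coding genes without a neighbour, and 2 had a peak in any ChIP list (15.4% against 53.7%). Of the 29 with a neighbour, 4 had a ChIP region (13.8% against 41.6%). In DAP the shares were 46.2% and 51.7% for UMAMIT genes without and with a neighbour, against 54.8% and 61.1% of all coding genes.

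Distances beyond the window gave a similar picture. The nearest reproducible ChIP region lay at a median of 7196 bp from a UMAMIT gene (quartiles 2227 and 13318 bp), against 2261 bp over all coding genes. It touched the gene span itself in 2 of 42 cases (4.76% against 28.3%). The farthest was 153741 bp, at UMAMIT32. For DAP the median was 844 bp, against 396 bp, and a region touched the span of 14 UMAMIT genes (33.3% against 42.7%). With flanks of 2000 bp, 9 UMAMIT genes had a ChIP region (21.4% against 47.9% of all coding genes).

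**Figure D3:**
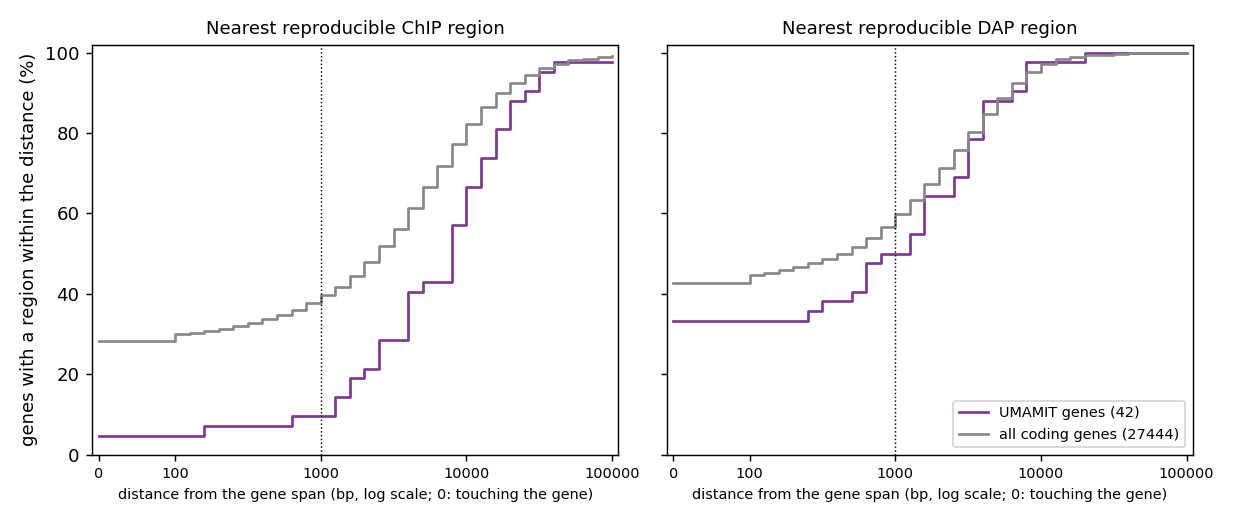
Lines give the percentage of genes that have a reproducible ChIP region (left) or DAP region (right) within a distance of the gene span, in bp on a log scale with 0 standing for a region that touches the gene. Purple is the 42 UMAMIT genes, grey all 27444 coding genes, and the dotted line marks 1000 bp. At 1000 bp the lines stand at 9.52% and 39.6% in ChIP, and at 50% and 59.9% in DAP.

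Some peaks lay near the window's edge. Just inside 1000 bp lay a DAP replicate 2 peak 960 bp from UMAMIT30 (fold 2.07) and a ChIP replicate 3 peak 915 bp from UMAMIT33 (fold 2.32), and neither decided a call. Just outside lay DAP peaks 1028 and 1033 bp from UMAMIT8 (folds 2.27 and 3.01 in replicates 2 and 1) and a ChIP replicate 3 peak 1069 bp from UMAMIT25 (fold 4.02).

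On bare DNA, the strongest peaks of the family were those of UMAMIT17 and UMAMIT6. UMAMIT17 had DAP folds of 5.27 and 4.91 at chromosome 4, 5249054 to 5249546, at the 90.3rd percentile on average, but the summits lay inside its neighbour AT4G08310. UMAMIT6 had folds of 4.56 and 4.73 at chromosome 3, 19720570 to 19720932, with summits 661 and 667 bp from its low-coordinate end, inside the gene. Both had no reproducible ChIP region. UMAMIT17 had no ChIP peak at all, and the 3 replicate 3 peaks of UMAMIT6 had folds of 1.87 to 1.96. Just outside the UMAMIT6 window lay a stronger DAP peak, with folds of 5.95 and 6.54 at 1091 and 1112 bp from the gene.

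Next in DAP rank came UMAMIT36 with folds of 3.94 and 4.02, beyond its high-coordinate end at chromosome 1, 26459840 to 26460527, where the next coding gene, AT1G70270, lay 3901 and 3897 bp from the summits. UMAMIT25, a plasma membrane exporter of the seed endosperm, followed with 3 DAP regions. The best of these, chromosome 1, 3025908 to 3026504, had folds of 3.79 and 4.0, with both summits inside the gene. UMAMIT35 had folds of 3.38 and 4.26, at chromosome 1, 22122433 to 22122981, and UMAMIT47 had 3.79 and 3.40, at chromosome 3, 10452193 to 10452803. The summits of both lay inside the gene, and neither gene had a peak in any ChIP list. UMAMIT24, UMAMIT3, UMAMIT42 and UMAMIT32 completed the first 10, with best DAP folds of 3.30 and 3.18, 3.17 and 2.65, 2.69 and 2.86, and 2.61 and 2.69 in replicates 1 and 2.

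Most DAP peaks of the family were weaker than the middle of their list. The median percentile of fold was 35.6 in DAP replicate 1 and 40.1 in replicate 2, with median folds of 2.43 and 2.49, against 2.78 and 2.73 for all peaks in windows of coding genes. In ChIP the median percentiles were 44.7, 43.9 and 41.1, with median folds of 1.91, 2.01 and 2.34 against 1.93, 2.05 and 2.46. The lowest reproducible DAP regions were those of UMAMIT41 (folds 1.78 and 1.53), UMAMIT40 (1.95 and 1.75) and UMAMIT13 (1.80 and 1.95). DAP summits nevertheless recurred at nearly the same base: 20 of 29 reproducible regions had replicate summits at most 20 bp apart, with a median of 11 bp. The 5 ChIP regions had a median summit spread of 283 bp, taken between the farthest summits of 2 or 3 lists. It is therefore not a like measure to the DAP distance, which comes from 2 lists. Of the 21 genes with a DAP region, 15 had 1, UMAMIT6, UMAMIT11, UMAMIT20 and UMAMIT32 had 2, and UMAMIT25 and UMAMIT30 had 3.

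**Figure D4:**
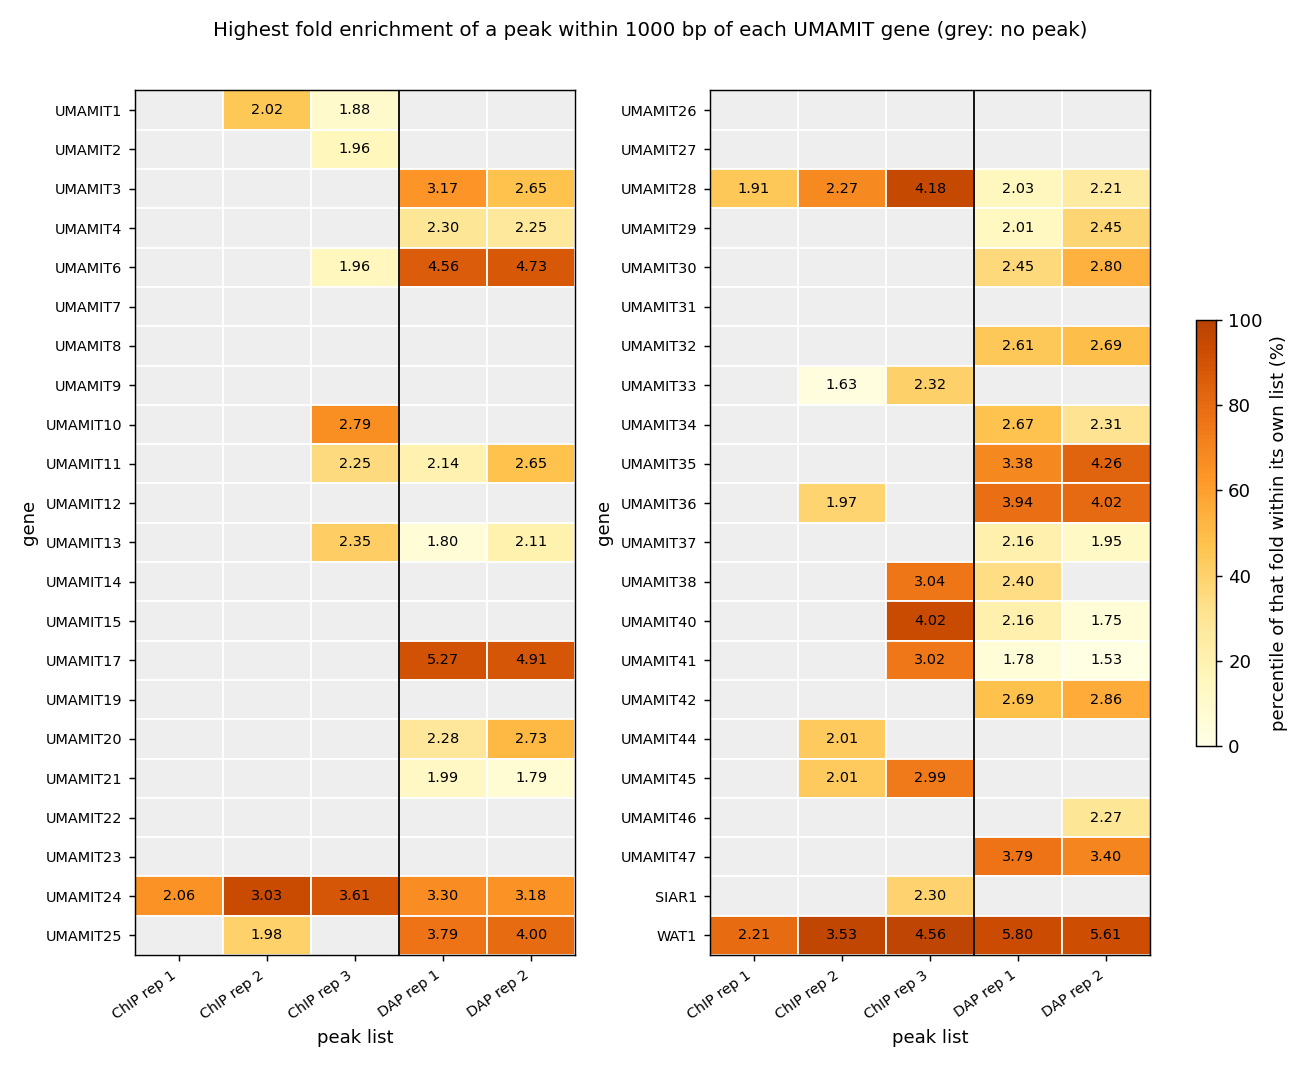
Each row is a gene and each column a peak list, with ChIP left of the black line and DAP right of it. The number is the highest fold of a peak within 1000 bp of the gene, as the authors give it, the colour its percentile within its own list, and grey means no peak. All 42 UMAMIT genes are shown, with SIAR1 and WAT1 at the end, and 12 UMAMIT rows are wholly grey.

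Of the 6 members known from the seed and fruit that carry a UMAMIT symbol, 2 had a ChIP region (33.3%, against 39.6% of all coding genes), namely UMAMIT28 and UMAMIT24. The same 2 had a region in both assays (33.3% against 25.2%), and 5 of the 6 had a DAP region (83.3% against 59.9%). Of the other 36 genes, 2 had a ChIP region (5.56%) and 16 a DAP region (44.4%). The stronger DAP region of UMAMIT11, on its low-coordinate side as described above, had folds of 2.36 and 2.65, and the weaker one, with summits 199 and 200 bp inside the gene, had 2.14 and 2.07. In the stronger region the replicate 1 peak lay 1084 bp from UMAMIT11, outside the window. Its replicate 2 summit lay 1392 bp from UMAMIT11 and 1054 bp from the neighbour CYP98A3. UMAMIT29 had DAP folds of 2.01 and 2.45 and no ChIP peak. UMAMIT14, which also unloads amino acids from the root phloem, had no peak in any of the 5 lists. With 6 genes in this group, and the choice of the list made with earlier results of these data known, the counts are descriptive. How active these genes were in the seedlings was not measured here.

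A peak was lacking in all 5 lists at 12 UMAMIT genes (28.6%, against 11.8% of all coding genes). These were UMAMIT7, UMAMIT8, UMAMIT9, UMAMIT12, UMAMIT14, UMAMIT15, UMAMIT19, UMAMIT22, UMAMIT23, UMAMIT26, UMAMIT27 and UMAMIT31. Lack of a peak says that none passed the authors' threshold in the window, and the files give no signal below it.

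Several UMAMIT genes stand next to each other on the chromosome. In 6 such runs, with no coding gene of another family between the members, 14 UMAMIT genes were found. Of these 1 had a ChIP region (7.14%), as did 3 of the other 28 (10.7%), against 39.6% of all coding genes. A DAP region was found at 7 of the 14 and at 14 of the 28 (50% in each), against 59.9%. UMAMIT26 and UMAMIT27 form a run on chromosome 1 without any peak. In the longest run, on chromosome 3, UMAMIT45 had the ChIP region, UMAMIT47 and UMAMIT41 had DAP regions, and UMAMIT46 had a DAP peak in replicate 2 alone (fold 2.27). Between UMAMIT37 and UMAMIT40 on chromosome 5, DAP replicate 1 had 1 peak that fell in both windows (fold 2.16), the only peak shared by 2 members. Reads from near-identical neighbours can be lost or misplaced in alignment, and the peak lists do not show how such reads were treated, so values within runs are less certain.

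The relatives named differently did not behave alike. WAT1 (UMAMIT5), an auxin transporter of the vacuole needed for secondary cell walls, had peaks in all 5 lists, with best folds of 2.21, 3.53 and 4.56 in ChIP and 5.80 and 5.61 in DAP. Its main ChIP region, chromosome 1, 28338111 to 28339641, lay inside the gene and covered the whole DAP region of 421 bp at 28338818 to 28339238. This ChIP region joins peaks whose summits are up to 854 bp apart, and the replicate 1 peak, 28338153 to 28338607, did not reach the DAP region. The best folds of WAT1 exceed those of every member in ChIP replicates 1, 2 and 3 and in both DAP lists. A further ChIP region on the low-coordinate side, with folds of 2.09, 2.02 and 4.06, had its summits inside the neighbour AT1G75490. SIAR1 (UMAMIT18), an exporter of root and fruit, had a single peak, in ChIP replicate 3 (fold 2.30). With both added, 5 of 44 genes had a ChIP region (11.4%) and 22 a DAP region (50%).

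Among other amino acid transporters, peaks in ChIP were found about as often as at coding genes in general. The 37 genes comprise the permeases AAP1 to AAP8, the LHT transporters, the cationic amino acid transporters CAT1 to CAT9, the proline transporters and the GDU regulators of glutamine export. A ChIP region touched the windows of 14 (37.8%, exact 95% interval 22.5% to 55.2%) and a DAP region those of 24 (64.9%, 47.5% to 79.8%), beside 39.6% and 59.9% of all coding genes. By family, ChIP regions were found at 3 of 8 AAP, 4 of 10 LHT, 5 of 9 CAT, 1 of 3 PROT and 1 of 7 GDU genes. Both assays marked 10 of the 37 (27%), beside 2 of 42 UMAMIT genes (4.76%) and 25.2% of all coding genes. At LHT1, an importer of roots and leaves, the best ChIP folds were 1.71 (replicate 2) and 2.55 (replicate 3), and DAP gave 2.49 and 2.29. At CAT6 the best folds were 2.06, 3.59 and 3.58 in the 3 ChIP lists, and DAP gave 5.82 and 5.37. In replicate 2 the highest fold among the 37 was 14.8, at AT1G61270 of the LHT family. No test was made between these families and UMAMIT genes.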

How the data were processed

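Peaks were measured in 5 of 9 samples, by ChIP (3 replicates) and DAP (2). BWA and MACS2 were used with the TAIR10 build, per the submitters' processing notes. Versions and settings are not given in the sources used here. Each deposited list belongs to 1 replicate and gives, for every peak, a score, a fold (ratio) over background, p-value and q-value as −log10, and the summit's distance from the peak start. Score and summit distance are the authors' values. The score was not used further.

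Peaks on chromosomes 1 to 5 were kept (4187, 14318 and 17074 for ChIP, 20746 and 20962 for DAP) and positions were turned to 1-based. Gene spans and symbols came from the RefSeq table of TAIR10.1, without strand. Its match to the peaks was checked on each chromosome: 30.9% to 33.7% of ChIP replicate 3 summits lay within 300 bp outside a gene end, against 13.5% to 14.8% after shifts of 2000 bp. Peaks of an assay overlapping by at least 1 bp were merged. Intervals are exact binomial (SciPy 1.17.1, Python 3.11.15). Counting was tested on simulated peaks, where 252 of 252 genes were recovered. The simulated peaks had the same bounds in each list and were placed only at genes far from any other. Merging of shifted peaks and windows with neighbours were therefore not tested.

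No test was made, since the members and lists were chosen with earlier results of these data known. Named genes were those with any ChIP peak, the 10 highest in DAP, those with no peak, the seed exporters and those sharing a peak. All 37 other transporters were found by locus. Promoter, protein and motif sequences planned were not analysed here.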

Additional observations from a re-analysis of the deposited data

How the results depend on the processing

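The UMAMIT share stayed below that of all coding genes under all 15 alternatives for ChIP, all 13 for DAP and all 17 for both assays, but for DAP alone it was above in 12 and below in 5. Those 5 were equal lists (4.76% against 13.9%), −log10 q of at least 10 (33.3% against 48.7%) and all 3 ChIP lists required (45.2% against 51.0%). The others among them left out ChIP replicate 2 (45.2% against 49.7%) or 3 (45.2% against 50.9%). The ChIP count of 4 became 2 with no flank (4.76% against 28.3% of all coding genes) and 9 with flanks of 2000 bp (21.4% against 47.9%). It became 1 with −log10 q of at least 10 (2.38% against 5.44%) and 2 with the 4187 top peaks of each list (4.76% against 14.7%). When all 3 ChIP lists were required it was also 2 (4.76% against 13.6%). It was 0 of 13 among genes without a coding neighbour, and ranged from 2 to 4 when a ChIP replicate was left out. The count of 2 in both assays became 0 with no flank (0% against 13.6%), 1 with 500 bp (2.38% against 19.3%) and 7 with 2000 bp (16.7% against 35.5%). It became 1 with −log10 q of at least 10 (2.38% against 3.40%) and 0 with equal lists (0% against 3.17%), where few coding genes of any kind were called. Without a neighbour it was 0 of 13 (0% against 19.3%). It was 1 when each summit counted for its nearest gene only (2.38% against 15.3%), an alternative chosen after seeing the data. The DAP count of 21 became 2 with equal lists and 6 of 13 without a neighbour. The 19 of DAP alone became 2 and 6, the latter 46.2% against 35.5%. With equal lists the UMAMIT share was 4.76% in both assays, against 14.7% of all coding genes in ChIP and 17.1% in DAP, so the gap was no longer wider in ChIP. With −log10 q of at least 10 (2.38% against 5.44% in ChIP, 35.7% against 52.1% in DAP) a wider ChIP gap in percentage points was not possible, as it cannot exceed 5.44. The ChIP gap in percentage points was also not wider when all 3 ChIP lists were required or ChIP replicate 3 was left out. In those settings the UMAMIT share was still a smaller fraction of the share of all coding genes in ChIP than in DAP. Without a neighbour the UMAMIT share was 0% against 31.3% in ChIP and 46.2% against 54.8% in DAP. Equal lists and the group without a neighbour hold fewer peaks or genes by construction. The other causes were not tested. Short lists limit what can be seen, since the depth is unknown and no signal below the threshold is given. No paired analysis was possible because the counts come from no test across samples.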

Other observations

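The table also holds 3 genes of the family with the ending -psi. UMAMIT43-psi and UMAMIT16-psi, annotated as coding, had no peak in any of the 5 lists within 1000 bp. UMAMIT39-psi, a transcribed pseudogene on chromosome 5, had no ChIP peak and DAP folds of 2.69 and 2.86, with summits at 16076333 and 16076320. These are also the peaks counted for UMAMIT42. DAP replicate 2 had a further summit there at 16078986.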
